A study of Caenorhabditis elegans with 12 samples.

Results

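The response examined here is the genotype by time interaction in Caenorhabditis elegans larvae on their way into dauer: the 52 h to 60 h change of each gene in a double mutant minus the same change in daf-2. All 12 of the 12 libraries of the series enter it, and they were chosen by their labels alone. The double mutant carries daf-2(e1370) and daf-42(ys54) (strain LJ2703), and it was harvested at 60 h and at 52 h after egg laying. The other strain carries daf-2(e1370) only (CB1370), and was harvested at the same 2 times. Each of the 4 groups has 3 libraries of polyadenylated RNA from whole animals. All groups therefore share the daf-2 mutation, eggs laid over 2 h at 15 °C and incubation at 25 °C, and no wild type or daf-42 single mutant was used here. Per the labels, the double mutant harvest at 60 h mixed live and dead L2d larvae in unstated shares, so death and genotype cannot be told apart in that group.

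Dauer is a non-feeding, stress-resistant larval stage that is entered in place of the third larval stage, by way of a pre-dauer stage called L2d. DAF-2 is the insulin-like receptor, and lowered signalling through it releases the transcription factor DAF-16 and drives larvae into dauer. Genes named daf were found by abnormal dauer formation. Entry into dauer replaces the cuticle, slows growth and reshapes metabolism and sensory neurons.

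Levels are given as CPM, counts per 1000000 after TMM scaling, and differences as log2 values from edgeR. A gene was called where the Benjamini-Hochberg adjusted p of edgeR's quasi-likelihood test was under 0.05. A positive interaction means that the change in the double mutant was higher than in daf-2, and a negative one that it was lower. Libraries held 30011686 to 43519410 estimated counts. The labels do not say that replicates came from separate cultures, so p-values measure the spread between these libraries. Spread between replicates, as the median over genes of the SD of log2 CPM, was 0.37 in the double mutant and 0.36 in daf-2 at 60 h, against 0.21 and 0.18 at 52 h. Some large changes were made by both strains. The small heat shock gene hsp-12.6 measured 130, 337 and 161 CPM at 60 h and 11.5, 8.75 and 6.63 CPM at 52 h in the double mutant, against 185, 154 and 355 CPM at 60 h and 15.4, 6.36 and 8.48 CPM at 52 h in daf-2. The cuticle collagen gene col-183 measured 6610, 11100 and 12500 CPM at 60 h and 1050, 687 and 458 CPM at 52 h in the double mutant, against 5810, 5480 and 11800 CPM at 60 h and 691, 670 and 714 CPM at 52 h in daf-2. In both strains the 60 h libraries of these genes lay above all 52 h libraries, and neither interaction was called (hsp-12.6 0.03, SE 0.62, and -0.80 with the length offset described last, and col-183 0.31, SE 0.57).

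The gene daf-42, altered in the double mutant, was read first. Its WBcel235 coordinates are IV:7333638-7346851, minus strand. It measured 273, 74.9 and 149 CPM at 60 h and 879, 685 and 777 CPM at 52 h in the double mutant, against 969, 1960 and 532 CPM at 60 h and 1010, 1850 and 2080 CPM at 52 h in daf-2. All 3 double mutant libraries at 60 h lay below all other libraries. Its own interaction was -1.72 (SE 0.72, edgeR adjusted p 0.12) and was not called. An offset that removes the trend with transcript length from each library (the length offset) brought it to -0.26. The receptor gene daf-2 had an interaction of -2.15 (SE 0.76, edgeR adjusted p 0.0818), also not called, and -0.59 with the length offset. Reads were shared with other genes in 9 libraries for daf-2 and in 1 for daf-42. Both genes were called without replicate 1 of the double mutant at 60 h (edgeR adjusted p 0.0307 for daf-42 and 0.00801 for daf-2) and without replicate 3 of daf-2 at 60 h (0.0431 for daf-42 and 0.0366 for daf-2).

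Of 16371 genes tested, 1558 were called for the interaction (9.52% of tested genes), 913 positive (5.58%) and 645 negative (3.94%). The difference was at least 2-fold for 1443 of them. The genotypes parted late: of the called genes, 893 were also higher and 634 lower in the double mutant than in daf-2 at 60 h, where 34.4% of all tested genes were called, 17.4% higher and 17% lower. At 52 h only 9 were higher and 6 lower, against 0.44% and 0.195% of all tested genes. These comparisons share libraries with the interaction and are given as a description of it. List counts at an unadjusted edgeR p under 0.05 stand beside 33.5% of all tested genes. List counts by other tools stand beside their totals over the 16371 genes. Those were 1802 positive and 1610 negative by DESeq2, and 1040 and 950 by limma voom.

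The calls fell into 5 patterns. The most frequent were reductions of a change that daf-2 made. In 571 genes the fall of daf-2 was reduced, with a median change of -0.06 in the double mutant and -1.63 in daf-2. In 512 genes the rise of daf-2 was reduced, with medians of -0.06 and 1.75. A further 287 genes had an added rise, called only in the double mutant, with medians of 1.73 in the double mutant and -0.21 in daf-2. Another 111 had an added fall (-1.38 and 0.62), and 47 rose in both strains but more in the double mutant (3.15 and 1.22). No gene had a larger fall in the double mutant by edgeR, 1 did by DESeq2, and 30 calls fell in no pattern. Because a pattern is set by the same changes that make up the interaction, these medians describe the groups and test nothing.

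Most reduced changes had no called change in the double mutant, which does not show that none took place, and few were turned round. Of the 512 reduced rises, 358 had no called change in the double mutant, 118 still rose and 36 fell. Of the 571 reduced falls, 396 had no called change, 106 still fell and 69 rose. In the plot of both changes the medians of these genes lie near the horizontal zero line, and some genes lie far from it.

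**Figure D1:**
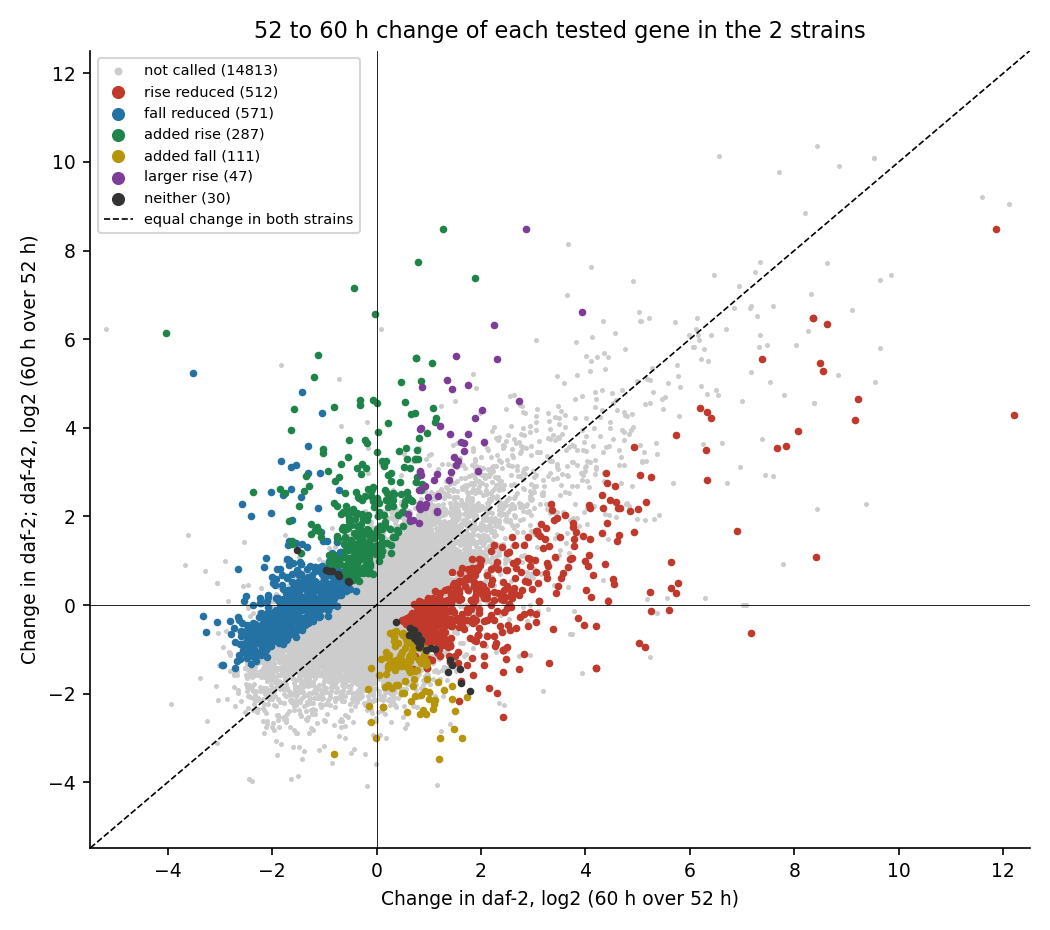
Log2 change between 52 h and 60 h in the double mutant (vertical axis) against daf-2 (horizontal axis) for 16371 tested genes, with 1 point per gene and colours for the patterns of the 1558 interaction calls. Genes on the dashed line changed equally in both strains. The 512 reduced rises spread to the right and the 571 reduced falls to the left, each with a median of -0.06 on the vertical axis. Some lie far from 0 there, such as scl-11 at 4.17 and cnc-4 at 4.81.

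Many changes were called in both strains. Of 2013 genes that rose at least 2-fold in daf-2, 1295 (64.3%) were called to rise in the double mutant, where 22.4% of all tested genes rose. Of 1830 genes that fell at least 2-fold in daf-2, 847 (46.3%) were called to fall in the double mutant, where 18.6% of all tested genes fell. The median change of those daf-2 falls was -0.65 in the double mutant and -1.57 in daf-2, and that of the daf-2 rises was 1.30 and 1.78. The 2 time changes share no library. The strain that chose the genes had the larger median each time: of 2401 genes chosen by a rise in the double mutant, the medians were 1.64 in the double mutant and 0.97 in daf-2.

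The most negative interactions among well expressed genes with reduced rises belonged to 3 genes for secreted SCP-like proteins and a tyrosinase gene. In the double mutant scl-11 measured 8.89, 19.3 and 17.2 CPM at 60 h and 1.04, 0.595 and 0.885 CPM at 52 h. In daf-2 the values were 1100, 900 and 1210 CPM at 60 h and 0.681, 2.63 and 2.28 CPM at 52 h. The 3 daf-2 libraries at 60 h were far above all others. scl-12 stood at 64.3, 118 and 89.4 CPM at 60 h and 7.02, 6.45 and 9.02 CPM at 52 h in the double mutant. In daf-2 it stood at 2510, 2220 and 3210 CPM at 60 h and 11.4, 10.4 and 12.7 CPM at 52 h. At 60 h the libraries of the strains were far apart for both genes, while at 52 h both strains were low. The interaction was -5.0 for scl-11 (SE 0.64, edgeR adjusted p 0.000926) and -4.25 for scl-12 (SE 0.40, edgeR adjusted p 0.000202). The neighbouring gene scl-13 averaged 55.6 ± 17.7 CPM at 60 h and 3.64 ± 0.868 CPM at 52 h in the double mutant, against 1920 ± 432 CPM at 60 h and 7.15 ± 1.27 CPM at 52 h in daf-2 (SD, n = 3 each), with an interaction of -4.14 (SE 0.44). Double mutant libraries gave 25.3, 27 and 32.9 CPM at 60 h and 1.5, 0.769 and 1.15 CPM at 52 h for tyr-3. Those of daf-2 gave 386, 521 and 461 CPM at 60 h and 0.757, 0.665 and 0.84 CPM at 52 h. Its interaction was -4.59 (SE 0.37, edgeR adjusted p 0.000112). All 4 genes still rose in the double mutant, by 3.59 to 4.65, against 7.85 to 9.23 in daf-2. Each was called in all 12 fits that left out 1 library. Of 18 tested SCP-like genes (26 listed), 3 were called negative and 1 positive, lon-1 (1.43), a regulator of body length. That was 22.2%, against 9.52% of all tested genes.

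**Figure D2:**
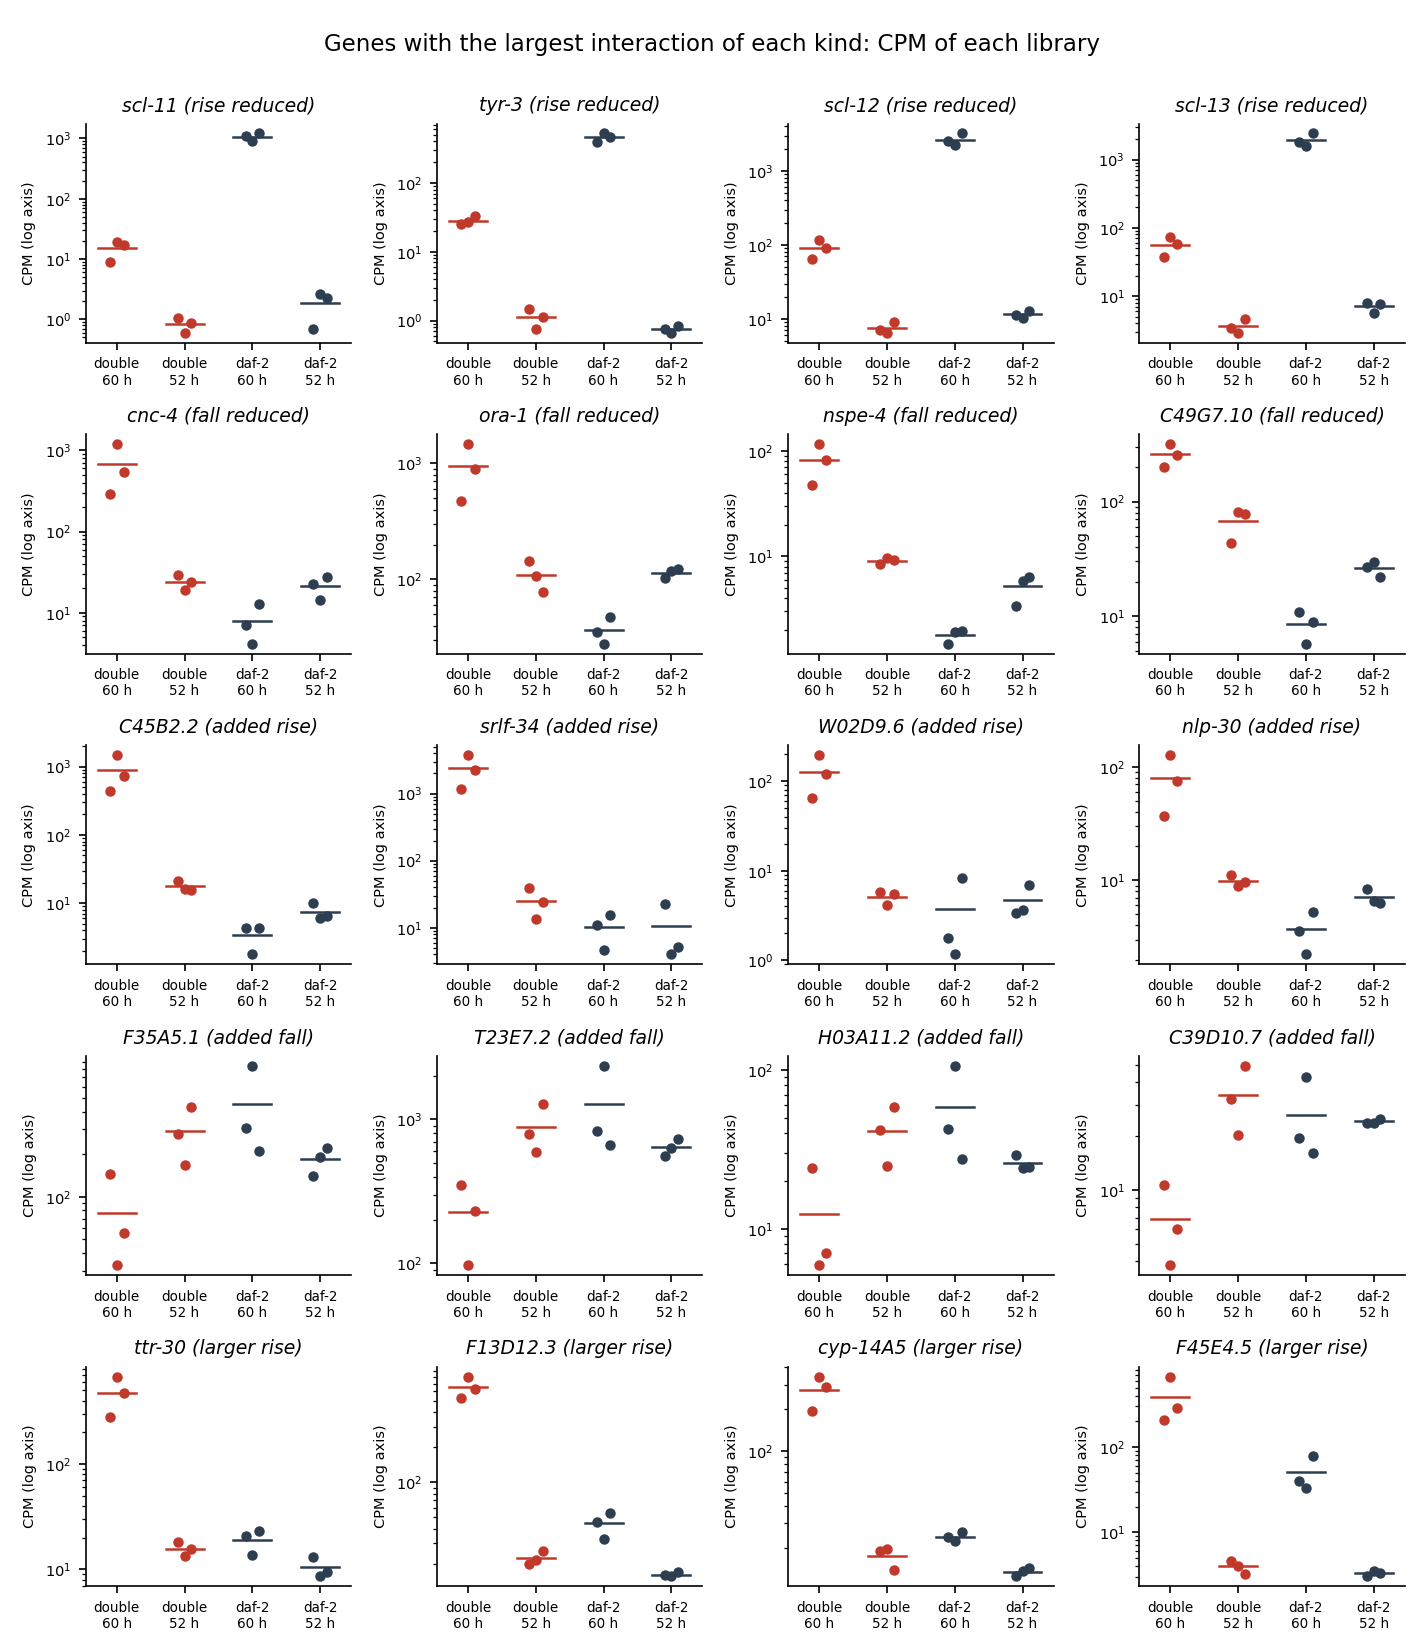
CPM on a log axis in each library for the 4 genes with the most extreme interaction in each pattern, with points for libraries and bars for means, the double mutant left (red) and daf-2 right (dark), 60 h before 52 h. In the top row daf-2 at 60 h stands above the other groups, as for scl-11 with a mean of 15.1 CPM in the double mutant and 1070 CPM in daf-2 at 60 h. In the rows of added and larger rises the double mutant at 60 h stands above the rest.

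Chitinase-like genes were a further set of reduced rises, picked out after their values were seen. Of 21 tested chil genes, 5 were called, all negative and all on chromosome II: chil-1, chil-2, chil-3, chil-15 and chil-17. For chil-17 the double mutant had 0.656, 0.744 and 0.839 CPM at 60 h and 0.423, 0.298 and 0.455 CPM at 52 h. daf-2 had 11.1, 9.18 and 12.7 CPM at 60 h and 0.378, 0.636 and 0.569 CPM at 52 h. All libraries other than daf-2 at 60 h were under 1 CPM. In the double mutant chil-2 measured 0.23, 0.217 and 0.0812 CPM at 60 h and 0.163, 0.124 and 0.144 CPM at 52 h. In daf-2 the values were 8.48, 7.21 and 6.47 CPM at 60 h and 0.151, 0.116 and 0.135 CPM at 52 h. The daf-2 libraries at 60 h were the only high ones for both genes. The interaction of chil-17 was -3.45 (SE 0.37, edgeR adjusted p 0.000354) and that of chil-2 was -5.47 (SE 0.54, edgeR adjusted p 0.00022). At 52 h chil-2 was near the detection limit in both strains. All 5 calls held in every fit that left out 1 library and with the length offset. Reads were shared with other genes in 8 libraries for chil-1, which overlaps old-1, and in 2 for chil-3. The genes are close neighbours: chil-1, chil-2 and chil-3 lie between 9859780 and 9874608, and chil-15 and chil-17 between 9438611 and 9443622 (WBcel235).

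Histone genes included a block of reduced rises. Of 69 tested histone genes (82 listed), 14 were called negative and 1 positive, 21.7% against 9.52% of all tested genes. The 14 lie on chromosome V, in runs between 8847393 and 8854053 and between 8889488 and 8898539 (WBcel235), and have interactions of -1.80 to -3.45. They are near-identical copies and share reads with other genes, several with the same value to the last digit, so they are fewer separate measurements than 14. F07B7.3, shown as an example chosen after its values were seen, measured 1.21, 1.8 and 1.49 CPM at 60 h and 2.54, 2.36 and 2.32 CPM at 52 h in the double mutant, against 9.59, 3.87 and 8.28 CPM at 60 h and 2.12, 1.62 and 1.87 CPM at 52 h in daf-2. Only daf-2 at 60 h was high. Over all 69 the median interaction was 0.64, against 0.04 over all tested genes, and with the length offset it was 0.06.

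Detoxification enzymes moved both ways. Of 65 tested UDP-glucuronosyltransferase genes (67 listed), which attach sugars to small molecules, 7 were called negative and 9 positive, 24.6% against 9.52% of all tested genes. All 7 negative calls were reduced rises. ugt-27 stood at 2.3, 2.64 and 2.57 CPM at 60 h and 2.21, 2.43 and 4 CPM at 52 h in the double mutant. In daf-2 it stood at 31.5, 26.7 and 23.5 CPM at 60 h and 4.44, 3.15 and 3.85 CPM at 52 h. Its interaction was -3.04 (SE 0.33, edgeR adjusted p 0.000354). The opposite extreme, ugt-31, measured 27.5, 49.3 and 26.7 CPM at 60 h and 4.19, 3.57 and 3.64 CPM at 52 h in the double mutant, against 2.78, 2.5 and 1.71 CPM at 60 h and 4.31, 3.56 and 3.31 CPM at 52 h in daf-2. Its interaction was 3.87 (SE 0.37, edgeR adjusted p 0.000211), and the double mutant at 60 h lay above all other libraries. Both genes lie on chromosome I.

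Of 73 tested cytochrome P450 genes (75 listed), 5 were called negative and 11 positive, 21.9% against 9.52% of all tested genes. The most negative, cyp-37B1, measured 8.17, 7.66 and 7.01 CPM at 60 h and 5.98, 4.96 and 6.05 CPM at 52 h in the double mutant, against 54.3, 51.9 and 75 CPM at 60 h and 7.04, 5.15 and 4.17 CPM at 52 h in daf-2, an interaction of -3.04 (SE 0.31, edgeR adjusted p 0.000237). It overlaps F28G4.2 on the other strand, so reads of both could be mixed if strand was not used in counting. The most positive was cyp-13A4 (4.09), which shared reads in 2 libraries and averaged 10 ± 2.06 CPM at 60 h and 2.37 ± 0.797 CPM at 52 h in the double mutant, against 0.513 ± 0.148 CPM at 60 h and 2.11 ± 0.497 CPM at 52 h in daf-2 (SD, n = 3 each). Of 46 glutathione S-transferase genes, 1 was called negative (gst-34, -1.65) and 3 positive (gst-6, gst-18 and gst-24, 1.46 to 2.98), 8.7% and so close to the share of all tested genes.

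Chemoreceptor genes were called about as often as other genes. Of 468 tested chemoreceptor genes (1310 listed), 25 were called negative and 16 positive, 8.76% in all and so close to the background. Of the 25, 21 were reduced rises and 4 added falls, and of the 16, 8 were larger rises. The most negative was srd-48, which measured 0.74, 0.5 and 0.579 CPM in daf-2 at 60 h and had 3 counts or fewer in several other libraries. The most positive was srw-3, which measured 2.59, 6.17 and 5.06 CPM at 60 h and 1.3, 1.26 and 0.861 CPM at 52 h in the double mutant, against 0.833, 0.437 and 0.906 CPM at 60 h and 4.19, 3.21 and 4.25 CPM at 52 h in daf-2, an interaction of 4.42 (SE 0.49, edgeR adjusted p 0.000391). Its fall in daf-2 was replaced by a rise in the double mutant. Among families picked after their values were seen, and so not to be read against the 3.94% of all tested genes called negative, 7 of 43 neuropeptide receptor (npr) genes were called, all negative, as were 7 of 42 potassium channel (twk) genes, 4 of 10 sodium-calcium exchanger (ncx) genes and 4 of 8 cation ATPase (catp) genes. The length offset kept 7, 4, 2 and 2 of these calls. Double mutant libraries gave 2.49, 2.02 and 3.28 CPM at 60 h and 0.195, 0.124 and 0.335 CPM at 52 h for catp-2. Those of daf-2 gave 82.9, 128 and 54.9 CPM at 60 h and 0.353, 0.81 and 0.163 CPM at 52 h. Its interaction was -4.12 (SE 0.77, edgeR adjusted p 0.0089), a call lost without replicate 3 of the double mutant at 52 h, with values of -4.86 to -3.58 over the 12 fits.

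By edgeR without the length offset, metabolic and lysosomal enzyme genes were called less often than all tested genes (9.52%), and their calls went both ways. The aspartyl protease gene asp-9 measured 68.2, 115 and 97.9 CPM at 60 h and 1.01, 0.67 and 1.77 CPM at 52 h in the double mutant, against 466, 521 and 685 CPM at 60 h and 2.17, 1.07 and 0.948 CPM at 52 h in daf-2, an interaction of -2.29 (SE 0.55, edgeR adjusted p 0.0253). It rose in both strains, by 6.34 in the double mutant and 8.63 in daf-2. The trehalase gene tre-5 had an interaction of -1.66 and the acyl-CoA synthetase gene acs-2 of -1.84. Of 25 tested aspartyl and cysteine protease genes, 1 was called (4%). Of 47 tested genes of sugar metabolism, 2 were called (4.26%), tre-5 and pfk-1.1 (-1.49). Of 56 lipid genes 4 were (7.14%), with elo-4 (1.78), elo-9 (1.26) and acdh-2 (2.16) positive and acs-2 negative. The 3 positive ones were reduced falls, and the median interaction of the lipid list was 0.50. With the length offset 10 lipid genes were called positive and 2 negative, against 1326 and 992 of all 16371 tested genes. DESeq2 called 15 lipid genes positive and 3 negative, against 1802 and 1610 of all tested genes. It called 7 protease genes positive and 1 negative, and 0 and 4 of sugar metabolism. By limma voom the counts were 8 and 2 for lipid, 1 and 1 for protease, and 0 and 3 for sugar metabolism genes.

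Falls that daf-2 made and the double mutant did not complete were led by cnc-4, ora-1, nspe-4 and C49G7.10. For cnc-4 the double mutant had 290, 1190 and 539 CPM at 60 h and 29.4, 19 and 23.6 CPM at 52 h. daf-2 had 6.97, 4.15 and 12.8 CPM at 60 h and 22.7, 14.5 and 27.4 CPM at 52 h. All 3 double mutant libraries at 60 h were above every other library, and daf-2 at 60 h was below both groups at 52 h. The interaction of this caenacin antimicrobial peptide gene was 6.24 (SE 0.75, edgeR adjusted p 0.00059), with a called rise of 4.81 in the double mutant and a called fall of -1.43 in daf-2. The gene ora-1 averaged 946 ± 493 CPM at 60 h and 109 ± 32.8 CPM at 52 h in the double mutant, against 36.7 ± 9.66 CPM at 60 h and 114 ± 10.5 CPM at 52 h in daf-2 (SD, n = 3 each). The gene, named for an Onchocerca-related antigen, had an interaction of 4.75 (SE 0.54, edgeR adjusted p 0.000445). The nematode-specific peptide gene nspe-4 averaged 82 ± 34.5 CPM at 60 h and 9.11 ± 0.566 CPM at 52 h in the double mutant, against 1.77 ± 0.255 CPM at 60 h and 5.2 ± 1.62 CPM at 52 h in daf-2 (SD, n = 3 each), and C49G7.10 averaged 258 ± 56.9 CPM at 60 h and 67.7 ± 20.9 CPM at 52 h in the double mutant, against 8.55 ± 2.61 CPM at 60 h and 26.2 ± 4.06 CPM at 52 h in daf-2 (SD, n = 3 each). Their interactions were 4.71 (SE 0.46) and 3.55 (SE 0.43), and their 4 groups did not overlap. In all 4 genes the fall was not only lost but turned into a rise, which was so for 69 of the 571 genes of this pattern.

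F-box genes gave mostly positive calls, and 16 of those were reduced falls. Of 178 tested F-box genes (327 listed), whose products select proteins for ubiquitination, 22 were called positive and 1 negative. That was 12.9%, against 9.52% of all tested genes. In the double mutant 32 fell and 39 rose, and in daf-2 69 fell and 23 rose. The background was 18.6% falls and 22.4% rises in the double mutant, and 16.2% falls and 18.5% rises in daf-2. The largest interaction was that of fbxa-50 (3.30, SE 0.48, edgeR adjusted p 0.00218), which measured 3.58, 6.54 and 3.79 CPM at 60 h and 1.46, 0.868 and 0.766 CPM at 52 h in the double mutant, against 0.524, 0.468 and 0.302 CPM at 60 h and 1.06, 0.81 and 0.921 CPM at 52 h in daf-2. The negative one was fbxa-69 (-1.17). The median interaction of the list was 0.59, against 0.04 over all tested genes, and 0.50 with the length offset.

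Proteasome subunits fell in daf-2 with few calls for the interaction itself. Of 33 tested subunits, 4 were called to fall in the double mutant and 29 in daf-2, against 18.6% and 16.2% of all tested genes. The median change of the subunits was -0.21 in the double mutant and -0.80 in daf-2. Only rpn-12, a regulatory particle subunit, was called for the interaction itself, with 103, 164 and 137 CPM at 60 h and 101, 114 and 89.3 CPM at 52 h in the double mutant, against 64.2, 45.3 and 78.7 CPM at 60 h and 100, 110 and 108 CPM at 52 h in daf-2 and a value of 1.16 (SE 0.33, edgeR adjusted p 0.048). The count of calls depended on the tool: DESeq2 called 16 of the 33 and limma voom 4. An unadjusted edgeR p under 0.05 was found for 16, against 33.5% of all tested genes.

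Cuticle and molting genes split by family. Of 83 tested hedgehog- and patched-related genes (85 listed), 10 were called positive and 7 negative, 20.5% against 9.52% of all tested genes. The 10 included 9 genes for hedgehog-related ligands of the grl, grd, wrt and hog families, all reduced falls, while all 7 negative calls were patched-related ptr genes. The ligand gene hog-1, shown as an example, measured 22.1, 34.7 and 28.8 CPM at 60 h and 33.9, 39.3 and 33.3 CPM at 52 h in the double mutant, against 11.7, 7.71 and 13.6 CPM at 60 h and 42.7, 44.3 and 41 CPM at 52 h in daf-2, an interaction of 1.64 (SE 0.31, edgeR adjusted p 0.00916). The exception among receptors was ptr-1, the most positive of the list (2.81, SE 0.25, edgeR adjusted p 0.000144), with 233, 241 and 306 CPM at 60 h and 92.4, 105 and 102 CPM at 52 h in the double mutant, against 31.9, 32.4 and 36.1 CPM at 60 h and 87.7, 87.9 and 93.9 CPM at 52 h in daf-2. Both genes overlap another gene on the opposite strand. The most negative was ptr-12 (-2.24), and 3 of the 7 negative ptr calls held with the length offset.

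Of 33 tested molting and pre-cuticle factors, 3 were called positive and 1 negative, 12.1% against 9.52% of all tested genes. Over time 21 fell in the double mutant and 16 in daf-2, against 18.6% and 16.2% of all tested genes. The astacin protease gene nas-37, needed to shed the old cuticle, measured 19.9, 15.9 and 17.2 CPM at 60 h and 6.47, 5.8 and 5.91 CPM at 52 h in the double mutant, against 85.3, 112 and 75.1 CPM at 60 h and 5.85, 5.72 and 6.04 CPM at 52 h in daf-2, an interaction of -2.41 (SE 0.25, edgeR adjusted p 0.000297). It overlaps C17G1.5 on the opposite strand, and it rose in both strains, by 1.55 in the double mutant and 3.95 in daf-2. The related gene nas-38 moved the other way, with 156, 173 and 216 CPM at 60 h and 50.3, 43.7 and 37.3 CPM at 52 h in the double mutant, against 34.1, 43.6 and 31.1 CPM at 60 h and 38.9, 46.3 and 45.5 CPM at 52 h in daf-2 and an interaction of 2.32 (SE 0.29, edgeR adjusted p 0.000784). No library of the double mutant at 60 h overlapped any other group for nas-38. The molting gene mlt-8 had a reduced fall (1.64, SE 0.33, edgeR adjusted p 0.0121), and so did nekl-3 (1.03).

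Of 32 tested cuticlin genes (35 listed), 5 were called positive and 3 negative, 25% against 9.52% of all tested genes. The largest, cut-2, measured 43, 26.9 and 55 CPM at 60 h and 5.43, 3.1 and 3.71 CPM at 52 h in the double mutant, against 3.24, 1.47 and 0.856 CPM at 60 h and 5.4, 1.39 and 1.27 CPM at 52 h in daf-2, an interaction of 3.91 (SE 0.80, edgeR adjusted p 0.0138). The most negative was cutl-24 (-1.77), called in only 3 of the 12 fits that left out 1 library. Collagens had a share below that of all tested genes: of 168 tested genes (177 listed), 7 were called positive and 2 negative, 5.36%. The negative ones were col-144 (-2.85), which shares reads, and col-150. The collagen gene col-150, a reduced rise, measured 118, 122 and 141 CPM at 60 h and 24.8, 22.6 and 20.8 CPM at 52 h in the double mutant, against 655, 512 and 863 CPM at 60 h and 42.9, 31.9 and 26.5 CPM at 52 h in daf-2, an interaction of -1.84 (SE 0.35, edgeR adjusted p 0.00925). Among 8 FK506-binding protein (fkb) genes, picked after their values were seen, 4 had reduced falls of 1.22 to 1.39, and all 4 were lost in several fits that left out 1 library.

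Some genes of pathogen-response families had reduced falls as well. Of 32 tested pals genes (38 listed), a family linked to responses to intracellular pathogens, 5 were called, all reduced falls. That was 15.6%, against 9.52% of all tested genes called. In the double mutant pals-24 measured 44.8, 74.6 and 40.6 CPM at 60 h and 38.3, 55.7 and 55.6 CPM at 52 h. In daf-2 the values were 12.4, 9.46 and 10 CPM at 60 h and 39.4, 47 and 49.5 CPM at 52 h. Its interaction was 2.19 (SE 0.35, edgeR adjusted p 0.0037). Of 133 tested C-type lectin genes (240 listed), 13 were positive and 4 negative, 12.8% in all. The 13 were 8 reduced falls and 5 added rises, and 3 of the 4 were reduced rises. The highest was clec-196 and the lowest clec-135, both at few counts.

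Of 43 tested antimicrobial peptide genes (61 listed), 13 were called positive and 0 negative by edgeR, 30.2% against 5.58% positive among all tested genes. They were 9 added rises and the 4 reduced falls of cnc-2, cnc-4, cnc-8 and fipr-21. DESeq2 called 19 positive and 1 negative, and limma voom 16 and 1. Of the 43, 27 had an unadjusted edgeR p under 0.05, against 33.5% of all tested genes. Over time 26 rose and 0 fell in the double mutant, against 22.4% and 18.6% of all tested genes. Of the same 43 genes, 9 rose and 9 fell in daf-2, against 18.5% and 16.2%. The 13 were 4 caenacins (cnc), 5 nlp genes of the kind that the epidermis switches on after fungal infection or wounding, and 4 genes of the fip and fipr families. nlp-29 stood at 97.2, 359 and 179 CPM at 60 h and 21.5, 16.2 and 17.9 CPM at 52 h in the double mutant. In daf-2 it stood at 6.38, 2.75 and 6.01 CPM at 60 h and 14.1, 8.53 and 8.32 CPM at 52 h. In daf-2 the 60 h libraries of nlp-29 were the lowest of all. Double mutant libraries gave 14.4, 24.8 and 12.2 CPM at 60 h and 0.39, 0.744 and 0.407 CPM at 52 h for fip-1. Those of daf-2 gave 1.3, 1.16 and 1.36 CPM at 60 h and 1.13, 0.867 and 0.759 CPM at 52 h. For both genes the double mutant at 60 h was far above all other libraries. The interaction of nlp-29 was 4.54 (SE 0.63, edgeR adjusted p 0.00154) and that of fip-1 4.57 (SE 0.46, edgeR adjusted p 0.000237). The list's median interaction was 1.48, and 0.68 with the length offset, with 16 members called positive there.

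**Figure D3:**
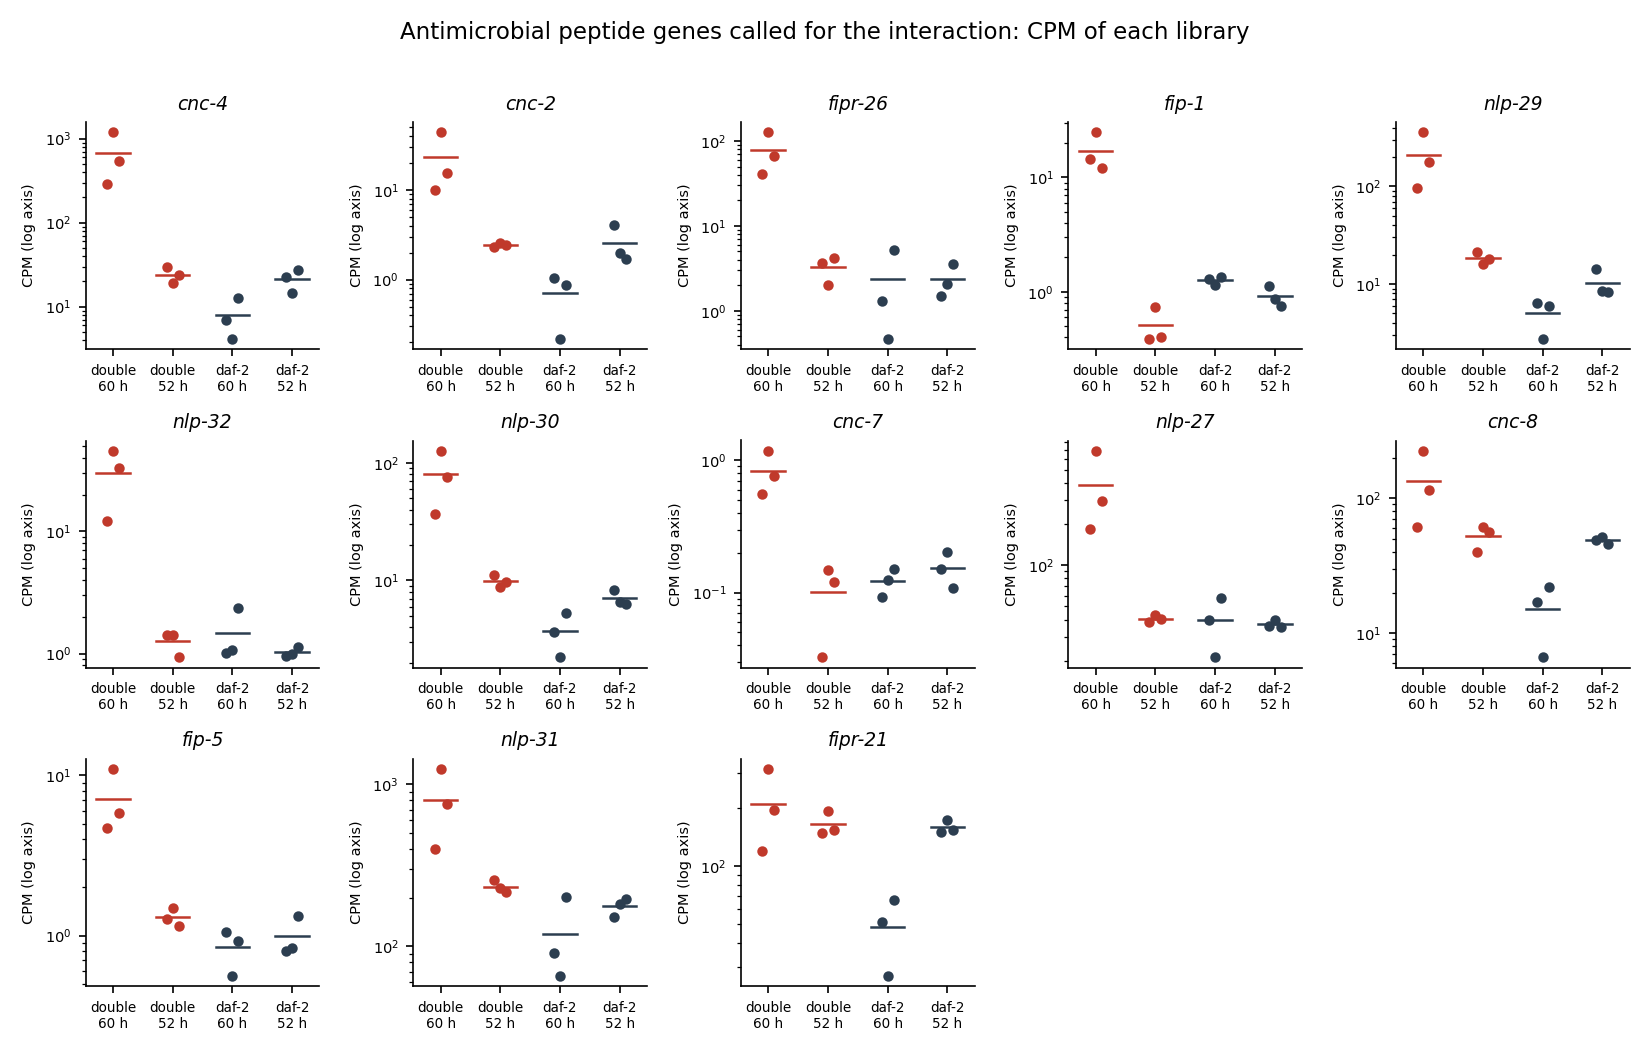
CPM on a log axis in each library for the 13 antimicrobial peptide genes called for the interaction, with points for libraries and bars for means, the double mutant left (red) and daf-2 right (dark). For nlp-29 the double mutant at 60 h averaged 212 CPM and daf-2 at 60 h 5.05 CPM. Replicate 2 of the double mutant at 60 h, the middle point of its group, was the highest library for each of the 13.

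Replicate 2 of the double mutant at 60 h was the highest library of these genes. It was also the library whose levels, against the mean of all libraries, fell most with transcript length (Spearman rho -0.66). That rho was taken across genes, which are not independent replicates. These peptide transcripts are short, with a median of 366 bases. The part of depth and length in the result was not tested beyond the length offset and the fits without a library. Of the 13 calls, 10 held in all 12 such fits, cnc-7 in 11, fipr-21 in 5 and nlp-31 in 2.

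Other added rises of large size had no listed role. For C45B2.2 the double mutant had 444, 1470 and 723 CPM at 60 h and 21.2, 16.3 and 15.4 CPM at 52 h. daf-2 had 4.29, 1.78 and 4.28 CPM at 60 h and 9.99, 6.16 and 6.53 CPM at 52 h. It is 1 of 4 neighbouring genes on the X chromosome, from 6082960 to 6088412, that were all called positive. Its interaction was 6.77 (SE 0.66, edgeR adjusted p 0.000211). In the double mutant srlf-34 measured 1180, 3760 and 2290 CPM at 60 h and 38.5, 13.6 and 24.2 CPM at 52 h. In daf-2 the values were 11.1, 4.62 and 15.5 CPM at 60 h and 22.8, 3.99 and 5.17 CPM at 52 h. The interaction of srlf-34 was 6.60 (SE 1.03, edgeR adjusted p 0.00332), and it overlaps gcy-5 on the opposite strand. That receptor guanylyl cyclase gene of a salt-sensing neuron was also called (3.47, SE 0.50, edgeR adjusted p 0.0019), at 10.4 ± 1.1 CPM at 60 h and 1.15 ± 0.342 CPM at 52 h in the double mutant, against 0.67 ± 0.364 CPM at 60 h and 0.805 ± 0.0953 CPM at 52 h in daf-2 (SD, n = 3 each). Without strand-aware counting, reads of these genes could not be told apart. W02D9.6 averaged 127 ± 65.6 CPM at 60 h and 5.12 ± 0.876 CPM at 52 h in the double mutant, against 3.72 ± 3.91 CPM at 60 h and 4.66 ± 2 CPM at 52 h in daf-2 (SD, n = 3 each), an interaction of 4.94 (SE 0.89, edgeR adjusted p 0.00723).

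Transthyretin-related genes, which code for small secreted proteins, gave 8 calls by edgeR, all positive. Of 48 tested (58 listed), 40 rose in the double mutant and 20 in daf-2, with medians of 1.60 and 0.65. Over all tested genes the share that rose was 22.4% in the double mutant and 18.5% in daf-2. For the interaction 8 were called positive and 0 negative by edgeR. Of the 48, 28 had an unadjusted edgeR p under 0.05, against 33.5% of all tested genes. DESeq2 called 20 positive and 1 negative, and limma voom 17 and 1. ttr-30 stood at 282, 674 and 473 CPM at 60 h and 18.3, 13.4 and 15.6 CPM at 52 h in the double mutant. In daf-2 it stood at 20.8, 13.7 and 23 CPM at 60 h and 13.2, 8.65 and 9.51 CPM at 52 h. The interaction of ttr-30 was 4.04 (SE 0.46, edgeR adjusted p 0.000422), a larger rise. The list's median was 1.05 without and 0.46 with the length offset, which gave 15 positive and 5 negative calls.

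Larger rises included a cytochrome P450 gene and a lysozyme gene. The P450 gene cyp-14A5 measured 192, 342 and 286 CPM at 60 h and 18.8, 19.6 and 13.9 CPM at 52 h in the double mutant, against 24, 22.4 and 25.9 CPM at 60 h and 12.5, 13.7 and 14.2 CPM at 52 h in daf-2, an interaction of 3.13 (SE 0.32, edgeR adjusted p 0.000269). F13D12.3 averaged 655 ± 137 CPM at 60 h and 22.4 ± 3.07 CPM at 52 h in the double mutant, against 44.4 ± 10.8 CPM at 60 h and 16.2 ± 0.618 CPM at 52 h in daf-2 (SD, n = 3 each), with 3.42 (SE 0.34). F45E4.5 averaged 387 ± 249 CPM at 60 h and 3.96 ± 0.696 CPM at 52 h in the double mutant, against 50.3 ± 24.5 CPM at 60 h and 3.29 ± 0.226 CPM at 52 h in daf-2 (SD, n = 3 each), with 2.68 (SE 0.60, edgeR adjusted p 0.0197), and it overlaps cla-1 on the opposite strand. The invertebrate-type lysozyme gene ilys-2 measured 61.9, 201 and 99.5 CPM at 60 h and 1.69, 1.74 and 1.1 CPM at 52 h in the double mutant, against 4.72, 2.15 and 3.8 CPM at 60 h and 0.883, 0.723 and 0.623 CPM at 52 h in daf-2, an interaction of 4.07 (SE 0.61, edgeR adjusted p 0.00259). For each of these genes the double mutant at 60 h was above all other libraries.

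Added falls were the pattern with the smallest share of calls held in all leave-one-out fits. The 4 genes that met the naming rule lie on the X chromosome: F35A5.1 (-3.21, edgeR adjusted p 0.0353), T23E7.2 (-2.97, overlapping T23E7.6 on the opposite strand), H03A11.2 (-2.92) and C39D10.7 (-2.43). Double mutant libraries gave 144, 32.7 and 55.2 CPM at 60 h and 277, 167 and 433 CPM at 52 h for F35A5.1. Those of daf-2 gave 305, 844 and 211 CPM at 60 h and 141, 192 and 221 CPM at 52 h. The double mutant at 60 h was below its own 52 h libraries, and replicate 2 of daf-2 at 60 h was the highest library. Each of the 4 was called in only 3 or 4 of the 12 leave-one-out fits. Of all 111 added falls, 5 were called in all 12, their median transcript length was 2390 bases against 1207 over all tested genes, and 76 were called with the length offset. The offset brought F35A5.1 to -1.23, T23E7.2 to -2.05, H03A11.2 to -1.62 and C39D10.7 to -1.27.

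Dauer signalling genes gave 3 calls. Of 40 tested, 2 were called negative and 1 positive, 7.5% in all and so below the 9.52% of all tested genes. Over time 21 fell in the double mutant and 6 in daf-2, against 18.6% and 16.2% of all tested genes. DESeq2 called 1 positive and 11 negative, and limma voom 1 and 8. Of the 40, 25 had an unadjusted edgeR p under 0.05, against 33.5% of all tested genes. Without replicate 1 of the double mutant at 60 h, edgeR called 2 positive and 22 negative. For daf-12 the double mutant had 200, 59.4 and 100 CPM at 60 h and 303, 281 and 428 CPM at 52 h. daf-2 had 406, 659 and 259 CPM at 60 h and 216, 271 and 308 CPM at 52 h. DAF-12 is the steroid hormone receptor that takes the dauer decision. Its interaction was -2.23 (SE 0.60, edgeR adjusted p 0.0401), and -1.11 with the length offset. The insulin receptor substrate gene ist-1 gave -2.24. Both were called in only 2 of the 12 fits that left out 1 library. The positive call was dhs-16, for a dehydrogenase of the dafachronic acid pathway that makes the ligand of DAF-12. It averaged 21.2 ± 3.86 CPM at 60 h and 34.2 ± 5.38 CPM at 52 h in the double mutant, against 10 ± 1.8 CPM at 60 h and 34.9 ± 3.9 CPM at 52 h in daf-2 (SD, n = 3 each). Its interaction was 1.11 (SE 0.28, edgeR adjusted p 0.0321), and it overlaps C10F3.7 on the opposite strand. daf-16 (-1.06, SE 0.43), daf-7 (-0.33, SE 0.31) and daf-9 (-0.25, SE 0.34) were not called. The list's median was -0.95, and -0.21 with the length offset.

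Tissue markers were read beside these results, since in bulk RNA fewer cells of a type and less RNA per cell cannot be told apart. No marker was at 0 in all libraries of a group. Of 30 muscle markers, 3 were called, 10% against 9.52% of all tested genes. All 3 were negative: unc-22 (-3.30), unc-89 (-3.27) and unc-52 (-3.0), which code for very large proteins. DESeq2 called 11 of the 30 negative, limma voom 8, and edgeR 16 without replicate 1 of the double mutant at 60 h. With the length offset unc-22 was at -0.03 and unc-89 at -0.06, and 4 of the 30 markers were called negative. The summed muscle level was 19500 to 25500 CPM in the double mutant at 60 h and 26400 to 45700 CPM at 52 h, and 32400 to 67500 CPM in daf-2 at 60 h and 26100 to 30200 CPM at 52 h. Of 25 neuron markers 3 were called (12%), all negative. DESeq2 called 9, limma voom 6 and edgeR 11 without replicate 1 of the double mutant at 60 h. Their summed level was 1520 to 2700 CPM in the double mutant at 60 h and 2270 to 2930 CPM at 52 h, and 2610 to 3140 CPM in daf-2 at 60 h and 2370 to 2590 CPM at 52 h. Of 16 intestine markers 4 were called negative and 1, elt-7, positive, by edgeR (31.2%), and 5 and 2 by DESeq2. Their sums were 1290 to 2820 CPM in the double mutant at 60 h and 2400 to 4030 CPM at 52 h. In daf-2 the sums were 1850 to 3340 CPM at 60 h and 2170 to 3250 CPM at 52 h.

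Epidermis and seam markers gave 0 calls of 19 by edgeR, 1 positive and 1 negative call by DESeq2 and 0 by limma voom. Where 33.5% of all tested genes had an unadjusted edgeR p under 0.05, 6 of these 19 markers did. Their summed level was 1180 to 2830 CPM in the double mutant at 60 h and 4250 to 5750 CPM at 52 h, and 1950 to 2900 CPM in daf-2 at 60 h and 4210 to 5130 CPM at 52 h, lower at 60 h in both strains. Germ line markers had 1 call of 24, prg-1 (-1.47), and sums of 309 to 566 CPM in the double mutant at 60 h and 559 to 683 CPM at 52 h, and 778 to 1370 CPM in daf-2 at 60 h and 521 to 689 CPM at 52 h. Pharynx and gland markers had 1 call of 16, phat-6 (1.58), and sums of 736 to 878 CPM in the double mutant at 60 h and 1010 to 1130 CPM at 52 h, and 582 to 727 CPM in daf-2 at 60 h and 877 to 940 CPM at 52 h. The share called by edgeR was 4.17% of germ line and 6.25% of pharynx and gland markers, against 9.52% of all tested genes. DESeq2 and limma voom each called 5 germ line markers, all negative, and edgeR 8 without replicate 1 of the double mutant at 60 h. Of the 24, 16 were called lower in the double mutant than in daf-2 at 60 h, against 17% of all tested genes. Their median interaction was -0.85, and -0.20 with the length offset. DESeq2 and limma voom each called 2 pharynx and gland markers, both positive. The part of tissue make-up in the results was not tested.

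Several gene lists gave no interaction call by edgeR. Of 30 FMRFamide-like peptide genes, 27 rose in the double mutant, where 22.4% of all tested genes rose, and 11 in daf-2, where 18.5% did, but 0 were called for the interaction by edgeR, DESeq2 or limma voom, with 1 at an unadjusted p under 0.05. Of 79 ribosomal protein genes, 27 rose in the double mutant and 0 in daf-2. Here edgeR and limma voom gave 0 interaction calls and DESeq2 1, with 4 genes at an unadjusted p under 0.05, and the median of 0.68 became 0.12 with the length offset. The 50 respiratory chain and ATP synthase genes gave 0 calls by edgeR, DESeq2 and limma voom, with 2 at an unadjusted p under 0.05. The 18 tested small heat shock and HSP-70 genes gave 0 by edgeR and limma voom and 1 by DESeq2. Of the 18, 7 had an unadjusted edgeR p under 0.05, against 33.5% of all tested genes.

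**Figure D4:**
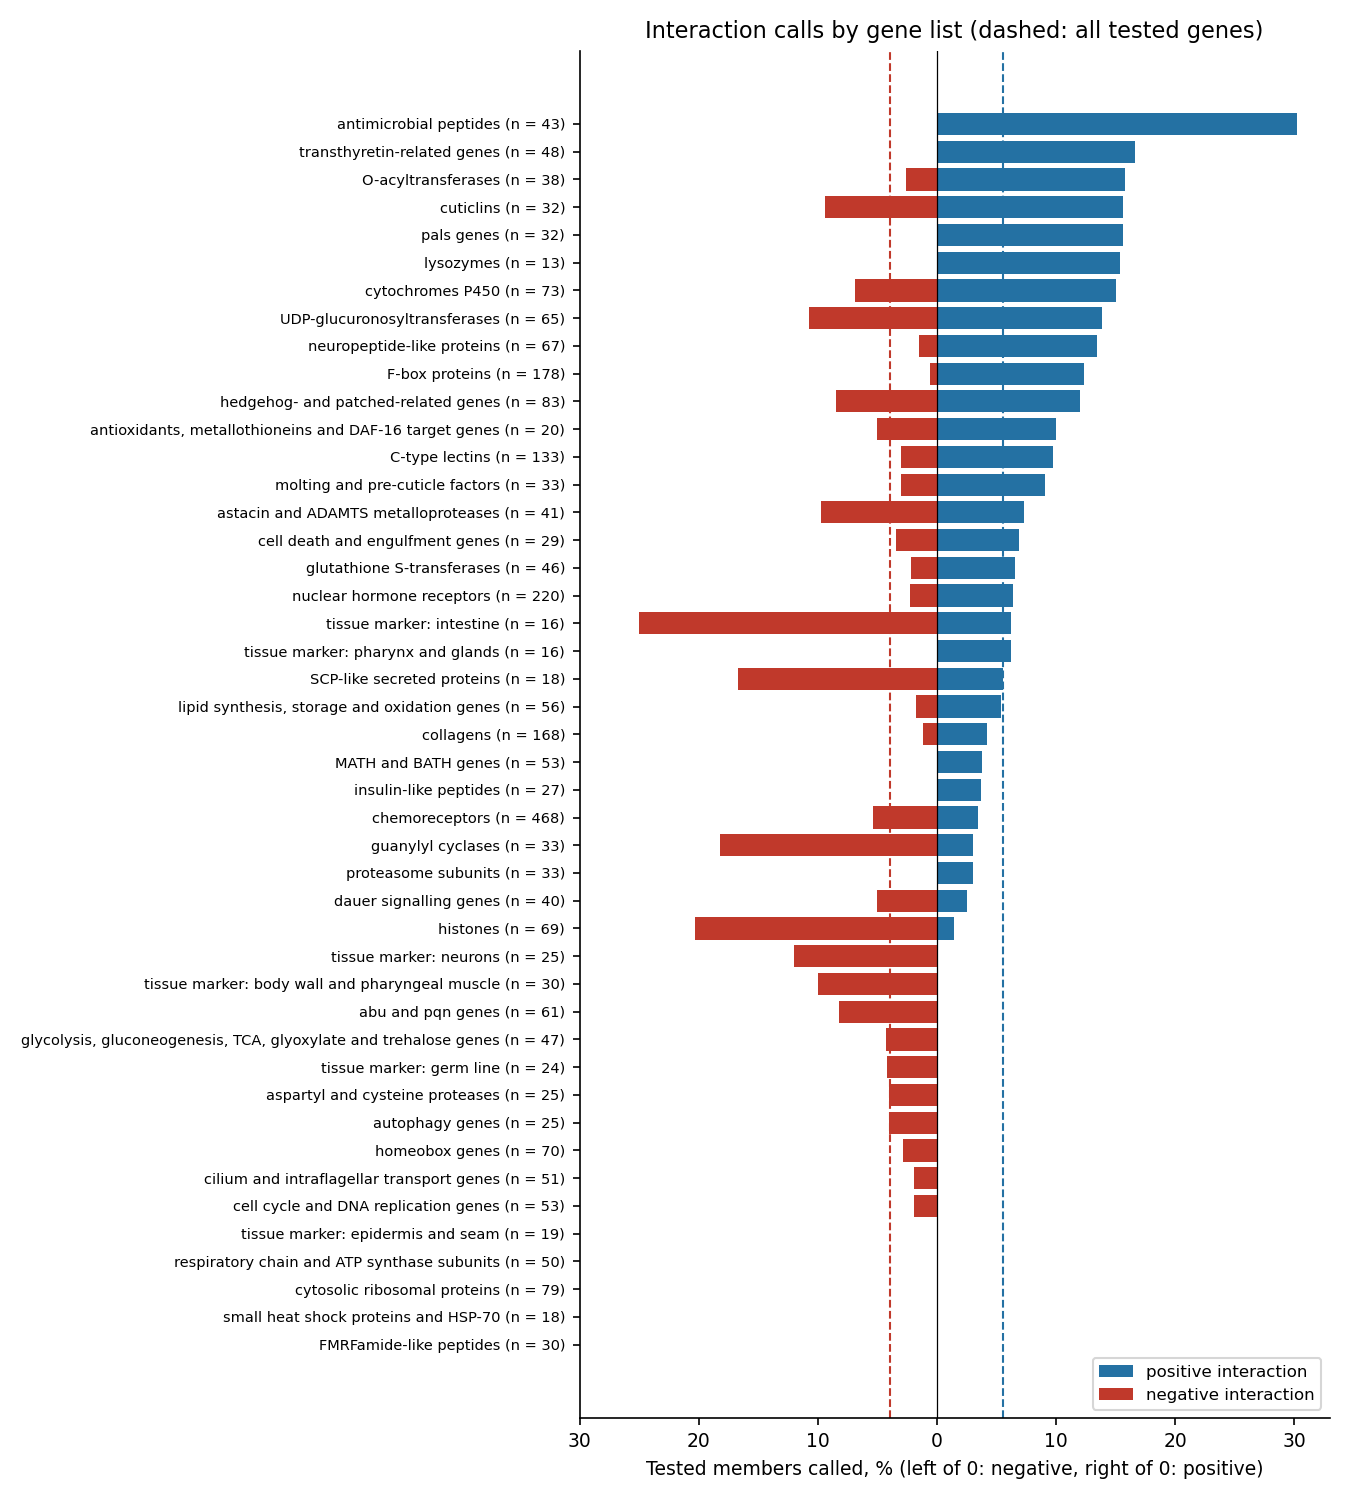
Share of tested members of each gene list called for the interaction (horizontal axis, percent), negative calls to the left and positive calls to the right of 0, with dashed lines at 3.94% and 5.58%, the shares of all tested genes. Antimicrobial peptides reach 30.2%, all positive, and 5 lists have no call.

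The remaining lists are set beside the 9.52% called among all tested genes. Guanylyl cyclases had 6 negative and 1 positive of 33, 21.2%, and with the length offset 1 and 3. Nuclear hormone receptors had 14 positive and 5 negative of 220, 8.64%. O-acyltransferase genes had 6 positive and 1 negative of 38, 18.4%, with oac-55 the most negative. In the double mutant oac-55 measured 0.525, 0.31 and 0.352 CPM at 60 h and 0.195, 0.248 and 0.383 CPM at 52 h. In daf-2 the values were 9.04, 12.1 and 10.8 CPM at 60 h and 0.202, 0.665 and 0.515 CPM at 52 h. Its interaction was -4.06 (SE 0.56, edgeR adjusted p 0.00152). Neuropeptide-like genes had 9 positive and 1 negative of 67, 14.9%. Of the 67, 59 rose in the double mutant and 22 in daf-2, against 22.4% and 18.5% of all tested genes. Of the 9, 5 are the antimicrobial nlp genes above, and the negative one was nlp-45 (-2.39). The abu and pqn genes had 5 negative of 61, 8.2%, led by abu-7 (-5.87), which shared reads in all 12 libraries. Cell death and engulfment genes had 2 positive and 1 negative of 29, 10.3% and so close to the background: the nuclease genes crn-2 (1.58) and crn-4 (1.48), and the calpain gene clp-1 (-1.87). Insulin-like peptide genes had 1 positive call of 27 by edgeR, ins-20, at few counts. DESeq2 called 7 positive, limma voom 4, and edgeR 10 without replicate 1 of the double mutant at 60 h, with 0 negative in each. Of the 27, 12 had an unadjusted edgeR p under 0.05, against 33.5% of all tested genes. The median interaction of that list was 0.92, and 0.29 with the length offset. Homeobox genes had 2 negative calls of 70, and autophagy, cilium and cell cycle genes had 1 negative call each, of 25, 51 and 53 tested. In all, 287 of the 1558 calls belong to one of 45 lists and 1271 to none.

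Some neighbouring genes were called together. There were 29 runs of at least 3 adjacent tested genes with calls of the same sign, 22 positive and 7 negative, and they held 106 of the 1558 called genes, some of which share reads with each other. The runs were looked for after the values were seen and have no test. Positive ones included fbxa-37, fbxa-50, ZC47.12, fbxa-36 and fbxa-35 on chromosome III from 1284996 to 1297142, with interactions of 1.69 to 3.71, nlp-31, nlp-30 and nlp-29 on chromosome V from 3980055 to 3984847 (2.35 to 4.54), and fip-5, fipr-21 and cnc-8 on the X chromosome from 10302741 to 10306951 (2.06 to 3.04). A negative run held srw-6, scl-13 and scl-12 on chromosome V from 3808636 to 3813437 (-3.43 to -4.25). The longest, of 8 genes, was a histone block whose members share reads.

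The interaction followed transcript length. In 5 classes of about equal size, the median interaction was 0.66, 0.35, 0.14, -0.14 and -0.83, shortest to longest. The shortest class, up to 710 bases, had 260 positive and 73 negative calls, and the longest, from 2012 bases, had 36 and 239. With the length offset the class medians lay between 0.01 and 0.04. Of the 1558 calls, 1358 were also called in the same direction with the offset, and the median interaction with the offset was -1.49 for reduced rises, 1.25 for reduced falls and -1.17 for added falls, against -1.76, 1.51 and -2.01 without it. The mean fragment length, read from effective lengths, was 219.3 to 223.9 bases in the double mutant at 60 h and 231.0 to 233.4 at 52 h, and 224.8 to 234.6 bases in daf-2 at 60 h and 231.1 to 239.4 at 52 h. The part of RNA quality in the length trend was not tested.

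**Figure D5:**
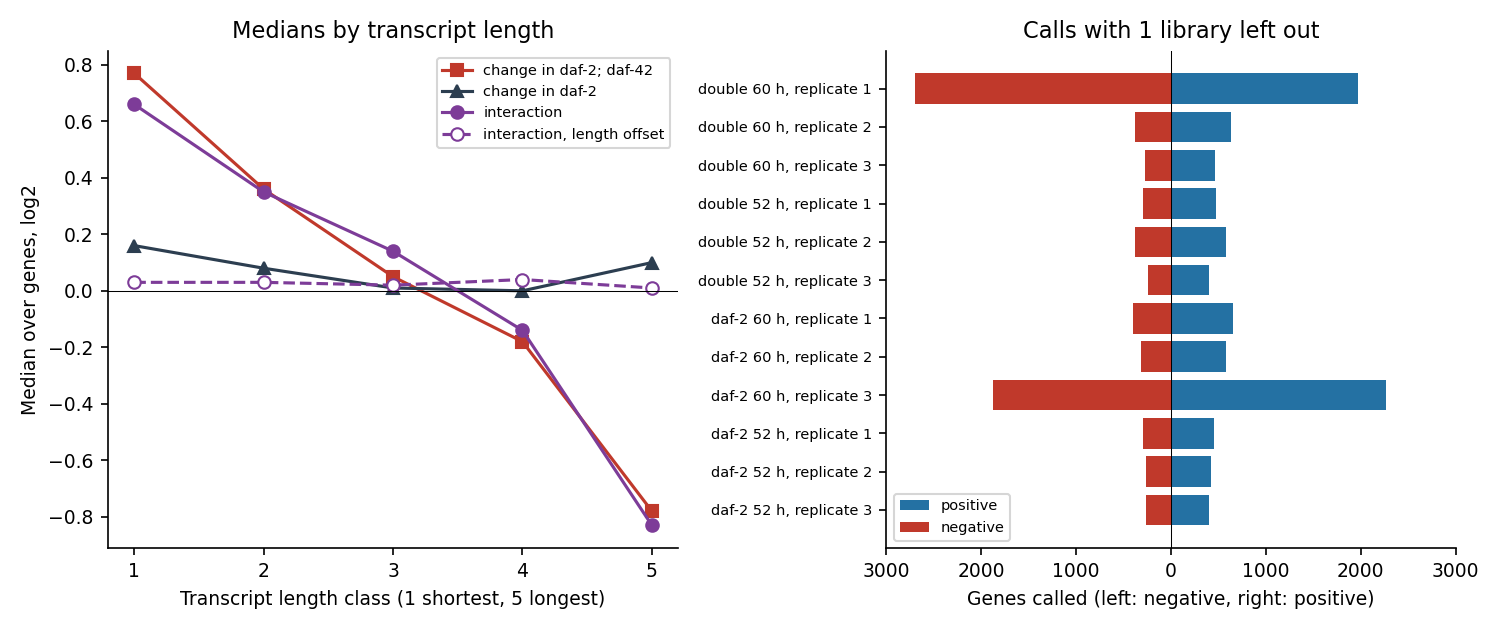
Left, median log2 change in each strain and median interaction over genes (vertical axis) in 5 classes of transcript length, shortest to longest, with the open circles for the fit with the length offset. Right, genes called for the interaction when the named library is left out, negative to the left and positive to the right of 0. The median interaction goes to -0.83 in the longest class and the offset brings all 5 near 0, and the call count is 4670 without replicate 1 of the double mutant at 60 h.

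The number of calls rested on single libraries. Without replicate 1 of the double mutant at 60 h there were 4670 calls, 1967 positive and 2703 negative, and all 1558 were among them. Without replicate 3 of daf-2 at 60 h there were 4136, with 1555 of the 1558 among them. Leaving out any other library gave 643 to 1054 calls. In all 12 such fits 519 genes were called, 314 positive and 205 negative. By pattern these were 200 of the reduced rises, 166 of the reduced falls, 123 of the added rises, 25 of the larger rises and 5 of the added falls.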

How the data were processed

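Polyadenylated RNA of whole larvae was read in 12 libraries made, per the labels' protocols, with TRIzol extraction and a stranded mRNA kit. The submitters' processing notes name kallisto 0.46.1 and the build WBcel235, and the strand setting and transcript release are not given in the sources used here. The authors deposited an estimated count and a TPM value per transcript for each library. TPM was used only to check that it sums to 1000000.

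Estimated counts of 36172 transcripts were summed to 22113 genes with the Ensembl WBcel235 annotation (31502 matched by exact identifier, 4581 by sequence name, 89 unmatched) and rounded to whole numbers. Sums that were not whole within 0.01 marked 2698 genes as sharing reads. Library totals ran from 30011686 to 43519410, and replicates differed by more than counting noise (chi-square per degree of freedom 14.6 to 513.0), so none was counted as a repeat. In R 4.3.3, edgeR 4.0.16 fitted group means to the 16371 genes passing filterByExpr (TMM scaling, quasi-likelihood test, Benjamini-Hochberg adjustment, threshold 0.05), with the interaction, both time changes and both genotype differences as contrasts. The procedure was tested on simulated data first. DESeq2 1.42.0, limma 3.58.1 (voom with group weights), a replicate block, other scalings and filters, a minimum fold change of 1.5, leaving out each library, and an offset removing a lowess trend (span 0.3) against transcript length were alternatives.

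The members and lists were chosen with earlier results of these data known. Genes were named by rule: daf-42 and daf-2; the 4 most extreme protein-coding genes per pattern that averaged at least 3 log2 CPM, no shared reads and the same call with the offset; and the extremes of each list, or all its calls up to 5. Other named genes, such as hsp-12.6, col-183, nlp-29, fip-1, hog-1 and genes of families or runs, were chosen after their values were seen.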

Additional observations from a re-analysis of the deposited data

Results flagged for a closer look

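The change between 52 h and 60 h differed between the strains, by the interaction test of edgeR, for 1558 genes, 913 positive and 645 negative. Among reduced rises the interaction was -5.0 for scl-11, -4.59 for tyr-3, -4.25 for scl-12 and -4.14 for scl-13. Among reduced falls it was 6.24 for cnc-4, 4.75 for ora-1, 4.71 for nspe-4 and 3.55 for C49G7.10. Among added rises it was 6.77 for C45B2.2, 6.60 for srlf-34, 4.94 for W02D9.6 and 3.94 for nlp-30. Among added falls it was -3.21 for F35A5.1, -2.97 for T23E7.2, -2.92 for H03A11.2 and -2.43 for C39D10.7. Among larger rises it was 4.04 for ttr-30, 3.42 for F13D12.3, 3.13 for cyp-14A5 and 2.68 for F45E4.5.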

How the results depend on the processing

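None of the 20 genes named by pattern, nor daf-42 or daf-2, changed direction under the alternatives. List medians of molting factors (-0.59), guanylyl cyclases (-0.67), cilium genes (-0.25) and intestine markers (-0.33) turned positive with the length offset (0.34, 0.09, 0.13 and 0.23). RLE scaling gave 1604 calls, upper-quartile scaling 1674, the stricter count filter 1560 and no filter 1549. DESeq2 gave 3412 calls, 1802 positive and 1610 negative, with 883 reduced rises, 1144 reduced falls, 523 added rises, 619 added falls, 81 larger rises and 1 larger fall. limma voom gave 1990 calls, with 334 added falls. The length offset gave 2318 calls, 1326 positive and 992 negative, with 817 reduced rises, 891 reduced falls and 77 larger rises. A minimum fold change of 1.5 left 442 calls, 258 positive and 184 negative, with 173 reduced rises, 88 reduced falls, 149 added rises, 9 added falls and 11 larger rises, since it tests against a larger change. The cause of the other shifts was not tested.

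Leaving out 1 library gave 643 to 4670 calls, 398 to 2263 positive and 241 to 2703 negative, with 233 to 916 reduced rises, 202 to 1119 reduced falls, 151 to 943 added rises, 8 to 1667 added falls, 18 to 120 larger rises and 0 to 26 larger falls. Without replicate 1 of the double mutant at 60 h, 42.1% of the calls were positive, against 58.6% with all libraries. Over the 20 genes named by pattern, 378 of 420 recomputed values kept their call and 42 lost it. Outside the fits without a library, the losses were F35A5.1, T23E7.2, H03A11.2 and C39D10.7, under the replicate block and under the minimum fold change. The interaction of daf-2 was called by DESeq2 and limma voom.

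Replicate numbers recur in each group, and nothing in the labels says what they share: of 18 correlations between same-numbered libraries 11 were over 0.1, in a range of -0.63 to 0.41, and the own number was best in 10 of 18. All 3 were over 0.1 between the 52 h groups and between the times of the double mutant, but not between the other groups, so the numbers were not taken as a pairing. With the replicate block there were 921 calls, 550 positive and 371 negative, 892 of them among the 1558, with 325 reduced falls and 24 added falls. Shares of promoter motifs, planned with 1 alternative window, were not run. Depth limits genes near 0 at 52 h, whose fitted changes depend on the prior count.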

Other observations

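Further families were picked after their values were seen and are given without a test, beside 5.58% positive and 3.94% negative calls among all tested genes. Of 28 tested saposin-like genes (spp), whose products include pore-forming antibacterial proteins of the gut, 6 had reduced falls (1.18 to 1.88) and 2 had reduced rises. spp-7 measured 2.69, 3.32 and 2.79 CPM at 60 h and 5.56, 5.03 and 4.88 CPM at 52 h in the double mutant, against 1.57, 1.31 and 1.46 CPM at 60 h and 5.6, 6.71 and 6.72 CPM at 52 h in daf-2, an interaction of 1.31 (SE 0.24). spp-11 went the other way, with 18.6, 26.9 and 16.2 CPM at 60 h and 13.1, 13.1 and 13.9 CPM at 52 h in the double mutant, against 156, 165 and 151 CPM at 60 h and 18.2, 11.2 and 19.3 CPM at 52 h in daf-2 and an interaction of -2.66. Both spp-7 and spp-11 were called in all 12 fits that left out 1 library.

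Of 23 tested claudin-like genes (clc), 5 were positive, and none of the 5 was called in all 12 such fits. Of 26 tested srlf genes 8 were positive, 3 of them in all 12 fits (srlf-7, srlf-13 and srlf-34), and of 8 tested nspe genes 4 were positive (2 reduced falls and 2 added rises), 2 of them in all 12 fits. Pseudogenes gave 21 positive and 34 negative calls of 722 tested, 7.62%. By chromosome the share called was 6.26% on I and 12.5% on V.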
